A study of Homo sapiens with 6 samples.

Results

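Small nucleolar RNAs and small Cajal body RNAs were followed in breast cancer cells kept at rest or exposed to fluid flow. The members were the genes whose symbol is SNORD, SNORA or SCARNA followed by a number and at most a letter, and whose raw counts over all 6 libraries summed to at least 60. The rule took 169 of the 60591 genes in the table, out of 328 genes with such a symbol. Of these, 95 were SNORD genes, 64 were SNORA genes and 10 were SCARNA genes. The members were thus selected on their summed count, which is not a result. Just inside the minimum lay SNORA84 and SNORD18A with 61 counts each and SNORA9B with 63, and just outside it lay SNORD15A with 57, SCARNA21 with 56 and SNORD15B with 55. The static libraries were the shallowest, so a gene counted mainly in static cells needed a higher level to reach the minimum. All 169 members passed the expression filter of the test, and each had at least 1 count in every library.

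The cells were bone-homing MDA-MB-231 cells, a variant of a triple-negative breast cancer line of human origin. They were kept in a 3-dimensional loading model that stands for the moving fluid around cells in mechanically loaded bone. The 3 conditions were static culture with no flow, low flow at 1 mL/min and high flow at 15 mL/min, with 2 libraries each of poly(A) RNA. The labels give no duration of flow, and the 2 libraries of a condition are not said to come from separate cultures. The p-values here therefore cover the spread between libraries alone, which may be technical.

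Box C/D RNAs, named SNORD, pair with other RNAs and guide the methylation of riboses, mostly in ribosomal RNA. Box H/ACA RNAs, named SNORA, guide the conversion of uridine to pseudouridine, and the SCARNA genes encode guides that stay in Cajal bodies and act on spliceosomal small nuclear RNAs. Most human members are cut out of introns of other genes, many of which encode ribosomal proteins or are non-coding hosts, and their mature forms carry no poly(A) tail. In libraries of poly(A) RNA, a count on such a gene can come from the mature RNA, from a precursor or from the transcript that holds it, and these sources cannot be told apart in the counts.

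Library totals ran from 17822642 to 53279537 counts and were lowest in the static libraries. The static and low flow columns carry 1 lane tag and the high flow columns another, so the effects of lane and of flow cannot be told apart where high flow is compared. The labels call the cells endothelial, whereas 2 of 7 endothelial markers reached 1 CPM (counts scaled to library size) in any library, PECAM1 and KDR, while CDH5 and CLDN5 had at most 2 counts in a library. Summed endothelial markers lay at 10.3 to 11.4 CPM in static cells, 14.9 to 16.1 CPM under low flow and 13.3 to 14.2 CPM under high flow. PECAM1, the highest of them, was called higher at both flow rates (log2 fold changes 0.70 and 0.55, edgeR adjusted p = 0.00778 and 0.0139). KDR and ERG went the other way and were called lower under high flow (-1.39 and -2.80, edgeR adjusted p = 0.0214 and 0.0379). ERG had at most 10 counts in a library. Of 5 epithelial markers, 4 reached 1 CPM in any library, and the 5 summed to 326 to 354 CPM in static cells, 420 to 428 CPM under low flow and 443 to 500 CPM under high flow. KRT8 and KRT18 made up most of that sum. EPCAM went the other way, with log2 fold changes of -0.31 under low flow and -0.55 under high flow, and did not pass. CDH1 had at most 3 counts in a library. VIM, CD44 and ZEB1, which mark the mesenchymal state of this line, summed to 4702 to 6161 CPM over the libraries. The endothelial and epithelial sums were thus higher in every flow library than in either static one, and their part in the members' values was not tested.

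The following sequences belong to box C/D members on which the results turn, including the 3 RNAs held by HSPA8, of which SNORD14E was called, and the pair held by RPL3. Capitals mark TGATGA within the first 25 bases, a form of the C box, and CTGA within the last 20 bases, a form of the D box. The sequences are those of GENCODE 29 on GRCh38, given 5′ to 3′ on the strand of the gene.
SNORD14E: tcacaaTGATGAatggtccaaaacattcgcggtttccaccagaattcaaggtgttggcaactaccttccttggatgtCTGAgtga
SNORD14D: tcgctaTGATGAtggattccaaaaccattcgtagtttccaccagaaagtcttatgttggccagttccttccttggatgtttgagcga
SNORD14C: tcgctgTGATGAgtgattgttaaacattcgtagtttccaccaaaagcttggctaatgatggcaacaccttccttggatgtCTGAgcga
SNORD50B: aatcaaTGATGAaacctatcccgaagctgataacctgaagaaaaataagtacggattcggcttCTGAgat
SNORD73A: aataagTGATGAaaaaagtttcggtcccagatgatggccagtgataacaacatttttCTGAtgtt
SNORD4A: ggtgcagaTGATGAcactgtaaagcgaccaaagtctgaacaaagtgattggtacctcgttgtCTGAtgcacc
SNORD83A: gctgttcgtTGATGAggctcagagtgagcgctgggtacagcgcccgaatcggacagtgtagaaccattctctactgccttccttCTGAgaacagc
SNORD83B: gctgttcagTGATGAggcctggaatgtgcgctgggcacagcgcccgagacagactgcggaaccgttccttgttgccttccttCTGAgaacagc
SNORD45B: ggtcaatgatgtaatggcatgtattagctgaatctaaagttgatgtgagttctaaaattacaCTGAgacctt
SNORD5: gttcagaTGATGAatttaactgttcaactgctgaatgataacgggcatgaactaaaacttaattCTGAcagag

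Next are 3 box H/ACA members that were lower under at least 1 flow rate, with capitals on ACA within the last 10 bases.
SNORA65: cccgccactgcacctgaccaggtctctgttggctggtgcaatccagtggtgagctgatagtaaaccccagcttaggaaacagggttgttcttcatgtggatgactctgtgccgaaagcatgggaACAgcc
SNORA21: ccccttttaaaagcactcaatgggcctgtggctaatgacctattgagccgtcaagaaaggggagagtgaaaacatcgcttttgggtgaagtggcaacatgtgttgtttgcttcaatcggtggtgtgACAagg
SNORA8: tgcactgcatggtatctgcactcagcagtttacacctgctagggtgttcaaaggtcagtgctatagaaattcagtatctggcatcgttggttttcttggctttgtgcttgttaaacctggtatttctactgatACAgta

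The letters followed the classes that the symbols name. TGATGA lay in the first 25 bases of 57 of 95 SNORD members, in 0 of 64 SNORA members and in 0.696% of 12926 other annotated transcripts of 50 to 300 bases, searched on the transcript strand. CTGA lay in the last 20 bases of 91 of 95 SNORD members (95.8%), against 8.98% of those other transcripts. ACA lay in the last 10 bases of 58 of 64 SNORA members (90.6%), against 11.4% of the other transcripts. SNORD14D holds no CTGA and SNORD45B no TGATGA in these windows. SNORD14E was 75.0% identical to SNORD14C and 78.2% identical to SNORD14D, and SNORD83A was 78.9% identical to SNORD83B. Of the 169 members, 42 had another annotated small nucleolar RNA at least 90% identical to them, which makes their counts uncertain.

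Nearly all members lay inside other genes of the same strand. By the GENCODE 29 annotation, 114 overlapped an exon of such a gene, 100 of them over their whole length, 53 were intronic, and 2, SNORA11F and SNORD3A, lay outside. They were held by 88 genes: 53 members lay in ribosomal protein genes, 75 in other protein-coding genes and 39 in non-coding genes. Members that overlap an exon can share reads with the gene that holds them, so their values are uncertain. Levels were low: the median member had 279 counts over all libraries, and the highest, SNORD49B in SNHG29, had 5447.

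Per length, box C/D members stood highest. The median density was 17.0 CPM per kb for SNORD, 8.97 for SNORA and 5.61 for SCARNA members. Without division by length the medians lay closer together, at 1.41, 1.22 and 0.958 CPM. Median lengths were 76, 134 and 272 bases in that order, so the order by density largely reflects length. Whether counts scale with length in genes this short was not tested. SNORD49B led with 335 CPM per kb, followed by SNORD58B with 159, SNORD86 with 129, SNORD104 with 124 and SNORD36A with 86.8. SNORA61, SNORA67, SNORA40, SNORA8 and SNORA7A led the H/ACA class with 56.1, 52.5, 42.5, 32.8 and 32.7 CPM per kb. SCARNA12 led its class with 16.2 CPM per kb, followed by SCARNA9 with 8.04, SCARNA22 with 6.55, SCARNA16 with 6.0 and SCARNA17 with 5.82. The density of a member was a median of 0.210 of its holding gene's where it overlapped an exon and 0.197 where it was intronic. It was above that of the holding gene for 22 of 114 exon-overlapping and 3 of 53 intronic members, SNORD104 in SNHG25 among them at 3.75 times.

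Among the 10 members with the highest CPM, no difference passed the test. SNORD49B had 29.1 and 24.4 CPM in static cells, 22.0 and 24.8 CPM under low flow and 20.2 and 24.4 CPM under high flow. SNORD86, held by NOP56, whose protein is part of every box C/D particle, had 14.9 and 11.7 CPM in static cells, 10.2 and 8.92 CPM under low flow and 9.27 and 11.8 CPM under high flow. The high flow libraries of SNORD49B lay at or below the lower static one, and those of SNORD86 overlapped the static range. The other 8 were SNORD58B, SNORD104, SNORA61, SNORA67, SNORD36A, SNORD68, SNORD22 and SNORD30, whose log2 fold changes against static lay between -0.51 and 0.49.

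**Figure D1:**
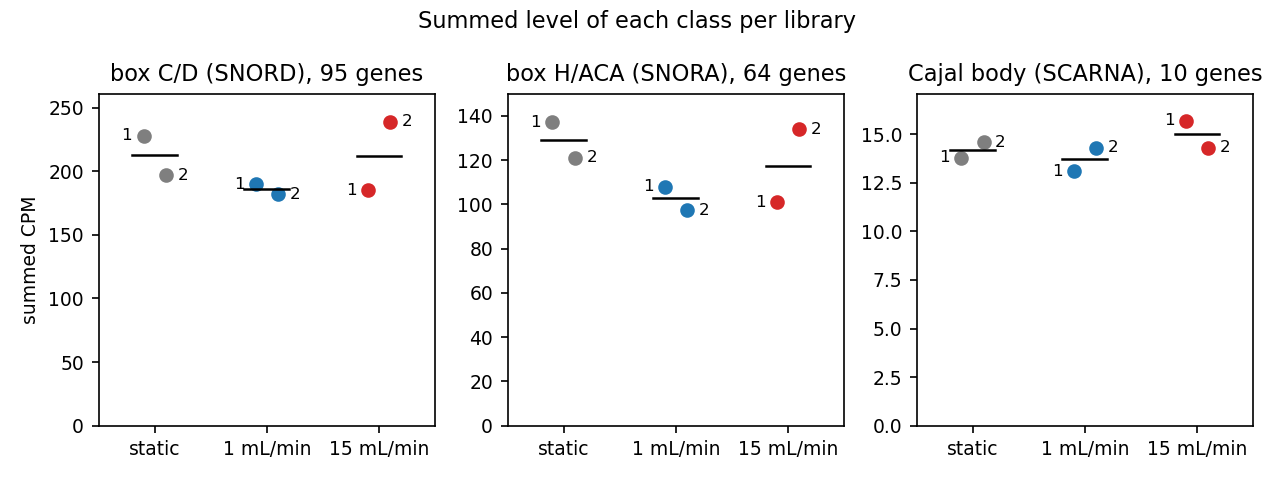
Summed CPM of the 95 SNORD, 64 SNORA and 10 SCARNA members in each library, by condition. Points are libraries with their replicate number and bars are means of 2 libraries; SNORD and SNORA sums were highest in static replicate 1 and high flow replicate 2 (137 and 134 CPM for SNORA).

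Summed over all members, the level was 380 and 333 CPM in static cells, 311 and 294 CPM under low flow, and 301 and 387 CPM under high flow. Both low flow libraries lay below both static ones, while high flow replicate 1 lay between the low flow libraries and high flow replicate 2 above all others. The mean was 356 ± 33.2 CPM in static cells, 302 ± 12.2 CPM under low flow and 344 ± 60.7 CPM under high flow (SD, n = 2 each). SNORA members summed to 137 and 121 CPM in static cells, 108 and 97.4 CPM under low flow and 101 and 134 CPM under high flow. In bulk RNA, fewer cells with a given RNA and less of it per cell cannot be told apart.

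**Figure D2:**
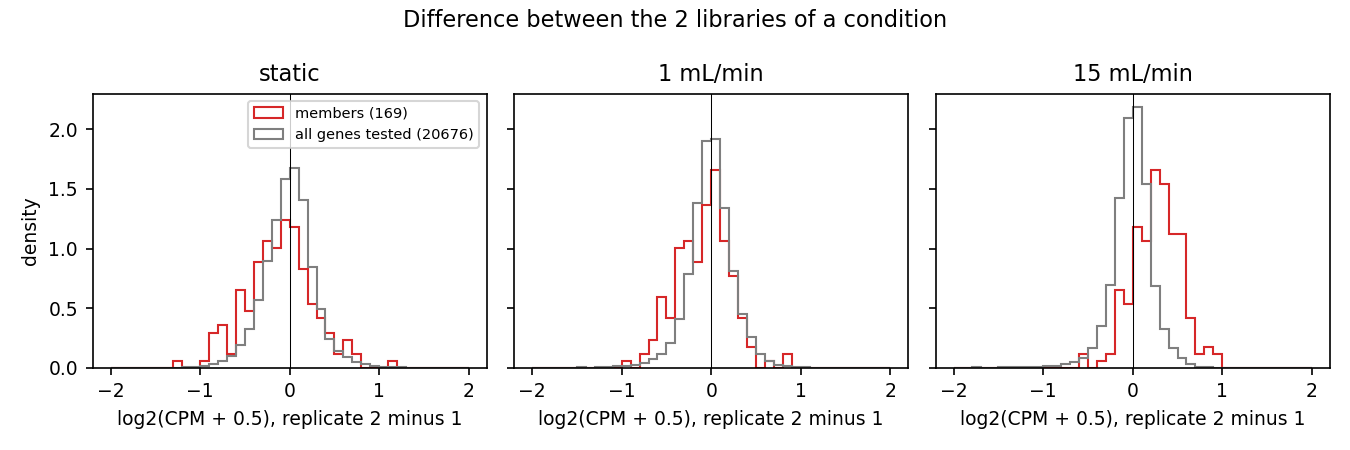
Distribution of the log2(CPM + 0.5) difference between replicate 2 and replicate 1 of each condition, for the 169 members and for all 20676 genes tested. In the panel for 15 mL/min the members are shifted to the right of all genes, by a median of 0.27.

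The 2 high flow libraries differed from each other in these RNAs. In high flow replicate 2, 144 of 169 members (85.2%) were higher than in replicate 1, with a median difference of 0.27 on the log2(CPM + 0.5) scale, whereas 50.3% of all genes tested were higher. In static cells 37.9% of members and under low flow 42.6% were higher in replicate 2. RN7SL2, the untailed RNA of the signal recognition particle, was highest in static replicate 1 and high flow replicate 2 too, with 50.6 and 25.4 CPM in static cells, 25.5 and 30.6 CPM under low flow and 30.8 and 69.2 CPM under high flow. Its part in the members' values was not tested.

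Under low flow, more members lay below static cells than above. The quasi-likelihood test of edgeR called 9 members lower, SNORD14E, SNORD50B, SNORD54, SNORD73A, SNORA65, SNORA71C, SNORA33, SNORA21 and SNORA3B, and 1 higher, SNORD45B. Those are 5.33% and 0.592% of the members, against 3.49% called lower and 3.25% called higher among all 20676 genes tested. Among the 5223 tested genes whose summed count lay between 95 and 972, the 10th and 90th percentile of the members, 1.53% were called lower and 1.26% higher. The median log2 fold change of the members was -0.17, beside 0.01 for all genes tested, and it was -0.10 without static replicate 1 and -0.29 without static replicate 2. Members in ribosomal protein genes had a median of -0.37, with 6 of 53 called lower, and members in other protein-coding genes a median of -0.03, with 1 of 75 called lower and 1 called higher. Of the 9 lower calls, SNORD14E and SNORD50B were the 2 that remained without static replicate 1, without static replicate 2 or without low flow replicate 2. Without low flow replicate 1 the median of the members was -0.22. DESeq2 called 4 of the 9 lower. It gave no adjusted p to SNORD54, SNORD73A, SNORA65, SNORA71C and SNORA3B. Their DESeq2 log2 fold changes were -1.43, -1.11, -1.72, -1.30 and -1.31, close to those of edgeR. SNORD45B was no longer called without either static library, without low flow replicate 2 or without either high flow library.

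Under high flow, calls against static went in both directions. The same test called 15 members lower and 8 higher, 8.88% and 4.73% of the members, against 6.43% lower and 7.49% higher among all genes tested. Among the 5223 genes of similar summed count, 4.42% were called lower and 3.47% higher. The median log2 fold change of the members was 0.10, beside 0.00 for all genes. That median was 0.26 without high flow replicate 1 and -0.16 without high flow replicate 2. Of the 15 lower calls, 8 remained without static replicate 1, 4 without static replicate 2, 4 without high flow replicate 1 and 9 without high flow replicate 2. Of the 8 higher calls, 3, 1, 2 and 1 remained in that order. With either low flow library left out, 14 members were called higher. SNORD14E, SNORD50B, SNORD54, SNORD73A and SNORD4A were the 5 that kept their call in all 13 alternatives tried. Both comparisons with static use the same static libraries, so their calls are not independent of each other.

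High flow was also compared directly with low flow. By edgeR, 1 member was called higher, SNORD4A, and 0 lower, 0.592% and 0% of the members, against 0.242% higher and 0.0919% lower among all genes tested and 0.191% and 0.0191% among the 5223 genes of similar summed count. At an unadjusted p under 0.05, 30 of 169 members passed in either direction, against 1990 of all 20676 genes, and DESeq2 likewise called 1 higher and 0 lower. The median log2 fold change was 0.21 for all members, 0.56 for the 53 in ribosomal protein genes and 0.01 for all genes tested. Positive values were found for 128 of 169 members and for 46 of the 53 in ribosomal protein genes, against 10576 of all 20676 genes. The median over all members was 0.05 without high flow replicate 2 and 0.40 without high flow replicate 1.

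**Figure D3:**
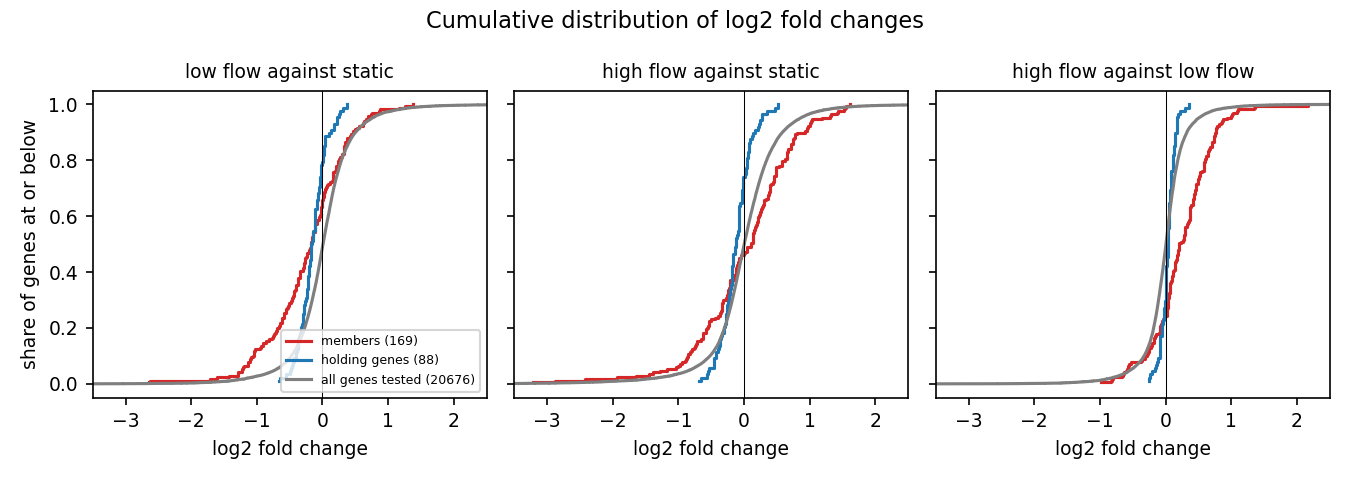
Cumulative share of genes at or below a log2 fold change, for the 169 members, the 88 genes that hold them and all 20676 genes tested, in each comparison. The members' curve lies left of all genes under low flow against static (median -0.17) and right of them under high flow against low flow (median 0.21).

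Among box C/D members, SNORD14E and SNORD50B were lower in both flow conditions by more than any other member. SNORD14E (GRCh38 chr11:123058077-123058161, minus strand), of the U14 family whose yeast member is needed for processing of the small subunit ribosomal RNA, lies in an intron of HSPA8. It had 5.79 and 5.61 CPM in static cells, 1.25 and 0.582 CPM under low flow and 0.725 and 0.807 CPM under high flow, from 105, 129, 57, 28, 31 and 43 counts. All 4 flow libraries lay below both static ones, while low and high flow overlapped. It was 6.23-fold lower under low flow (log2 fold change -2.64, SE 0.29, adjusted p = 1.07e-04) and 7.38-fold lower under high flow (-2.88, SE 0.30, adjusted p = 1.76e-05), by edgeR. Its neighbours in HSPA8 did not pass: SNORD14D had log2 fold changes of -0.74 under low flow and -0.55 under high flow, and SNORD14C of -0.35 and -0.13. HSPA8, which encodes a constitutive heat shock protein, had -0.23 and -0.08, neither of which passed. SNORD14A, the family member held by RPS13, had -0.27 and -0.15.

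SNORD50B (chr6:85677589-85677658, minus strand) overlaps an exon of SNHG5, a non-coding host. It had 5.35 and 5.65 CPM in static cells, 1.25 and 0.540 CPM under low flow and 0.468 and 0.695 CPM under high flow. Again every flow library lay below both static ones. It was 6.16-fold lower under low flow (log2 fold change -2.62, SE 0.32, edgeR adjusted p = 3.55e-04) and 9.31-fold lower under high flow (-3.22, SE 0.33, adjusted p = 3.35e-05). SNHG5 also fell, to 113 and 107 CPM under low flow, against 176 and 168 CPM in static cells, and to 110 and 102 CPM under high flow. Its log2 fold changes of -0.64 and -0.69 were smaller than those of SNORD50B. Another annotated sequence is 92.9% identical to SNORD50B, so its counts are uncertain.

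SNORD54 in RPS20 and SNORD73A in RPS3A were lower under both flow rates. SNORD54 had 3.03 and 2.17 CPM in static cells, 1.10 and 0.831 CPM under low flow and 0.585 and 0.751 CPM under high flow. SNORD73A (chr4:151103827-151103891, plus strand) had 2.92 and 2.65 CPM in static cells, 1.45 and 1.14 CPM under low flow and 1.15 and 0.976 CPM under high flow. Neither gene's flow libraries overlapped its static ones. The log2 fold changes were -1.42 and -1.94 for SNORD54 and -1.10 and -1.39 for SNORD73A, under low and high flow in that order. RPS20 had -0.21 and -0.19 and RPS3A 0.02 and -0.07, and none of these passed. SNORD58A in RPL17, which lay outside the first 10 by p and was chosen after its values were seen, had 0.491 and 0.657 CPM under high flow, against 1.43 and 1.39 CPM in static cells (log2 fold change -1.28, adjusted p = 0.0196).

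In all, 5 of the 95 box C/D members were called higher under high flow against static (5.26%, against 7.49% of all genes tested). Another 6 were called lower (6.32%, against 6.43%). Both shares lay below those of all genes, so the counts are not read as a result about the class. SNORD4A (chr17:28722582-28722653, plus strand), in an intron of RPL23A, had 1.65 CPM in each static library, 2.09 and 1.75 CPM under low flow and 3.77 and 4.45 CPM under high flow. The high flow libraries lay above all others. It was 2.49-fold higher under high flow than in static cells (log2 fold change 1.31, SE 0.24, edgeR adjusted p = 0.00209) and 2.15-fold higher than under low flow (1.10, SE 0.21, adjusted p = 0.0224). The second call was lost without either high flow library, without static replicate 2, with the 4 libraries alone and with the replicate block, where adjusted p over the alternatives ran from 4.99e-04 to 0.351. SNORD4B, 72.2% identical to it and in the same gene, did not pass, with log2 fold changes against static of -1.05 under low flow and -0.24 under high flow.

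SNORD45B (chr1:75789477-75789548, plus strand), which overlaps an exon of RABGGTB, was the member called higher at both flow rates. It had 1.93 and 2.30 CPM in static cells, 3.73 and 3.99 CPM under low flow and 3.35 and 5.14 CPM under high flow. Every flow library was above both static ones, with log2 fold changes of 0.86 (SE 0.24, edgeR adjusted p = 0.0416) and 1.00 (SE 0.24, adjusted p = 0.0114). SNORD45A and SNORD45C in the same gene had 0.29 and -0.01 under low flow and 0.18 and -0.10 under high flow, and did not pass. RABGGTB itself had -0.11 and -0.08. Another annotated sequence is 93.1% identical to SNORD45B.

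SNORD83A and SNORD83B in RPL3 were both called higher under high flow against static. SNORD83A had 2.48 and 3.83 CPM under high flow, against 1.65 and 1.61 CPM in static cells. SNORD83B had 2.46 and 3.42 CPM under high flow, against 1.87 and 1.09 CPM in static cells. Both had non-overlapping groups, log2 fold changes of 0.96 and 1.02 and adjusted p-values of 0.0267 and 0.0268 by edgeR. Each kept its call in 8 of the 13 alternatives tried, and both calls were lost with the replicate block. Over the alternatives the log2 fold changes ran from 0.60 to 1.23 for SNORD83A and from 0.66 to 1.44 for SNORD83B. In both, high flow replicate 2 lay above replicate 1, as it did for most members. SNORD48 in SNHG32 had 2.13 and 2.27 CPM under high flow, against 1.49 and 0.869 CPM in static cells (log2 fold change 0.93, adjusted p = 0.0408).

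**Figure D4:**
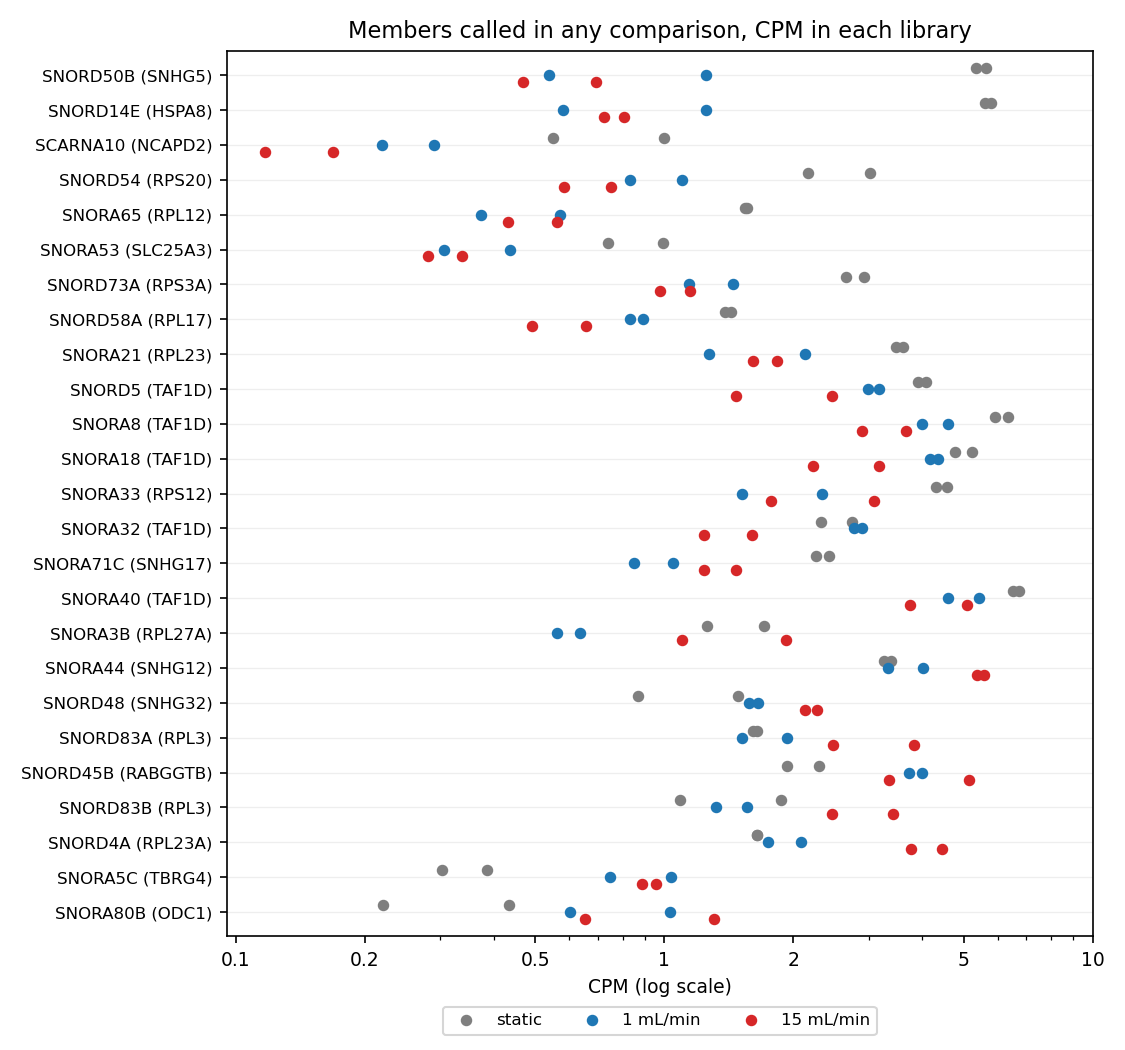
CPM on a log axis in each library for the 25 members called in any comparison, ordered by their log2 fold change under high flow against static, with the holding gene in brackets. SNORD50B and SNORD14E at the top have static libraries between 5.35 and 5.79 CPM and all flow libraries at or below 1.25 CPM.

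Of the 64 box H/ACA members, 5 were called lower under low flow (7.81%, against 3.49% of all genes tested). Under high flow 8 were called lower and 3 higher (12.5% and 4.69%, against 6.43% and 7.49% of all genes tested). SNORA65 (chr9:127448501-127448630, minus strand), in an intron of RPL12, had 1.54 and 1.56 CPM in static cells, 0.571 and 0.374 CPM under low flow and 0.562 and 0.432 CPM under high flow. SNORA21 (chr17:38852863-38852994, minus strand), in RPL23, had 3.47 and 3.61 CPM in static cells, 2.13 and 1.27 CPM under low flow and 1.83 and 1.61 CPM under high flow. Both were lower in every flow library, with log2 fold changes of -1.72 and -1.65 for SNORA65 and of -1.06 and -1.04 for SNORA21. RPL12 itself was called lower, at -0.45 and -0.40 (adjusted p = 0.0185 and 0.0188), and RPL23 had -0.28 and -0.23 and did not pass. SNORA33 in RPS12 had 4.58 and 4.30 CPM in static cells, 2.33 and 1.52 CPM under low flow and 1.78 and 3.08 CPM under high flow, and passed in both comparisons (-1.21 and -0.86).

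SNORA71C and SNORA3B were called lower under low flow, and not under high flow. SNORA71C in SNHG17 had 1.05 and 0.852 CPM under low flow, against 2.43 and 2.26 CPM in static cells, and 1.47 and 1.24 CPM under high flow. SNORA3B in RPL27A had 0.637 and 0.561 CPM under low flow, against 1.71 and 1.26 CPM in static cells, and 1.10 and 1.92 CPM under high flow. The direct comparison of high with low flow did not pass for either, with log2 differences of 0.51 (adjusted p = 0.576) and 1.34 (adjusted p = 0.132).

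In all, 3 H/ACA members were higher under high flow. SNORA44 in SNHG12 had 5.38 and 5.59 CPM under high flow, against 3.25 and 3.39 CPM in static cells (log2 fold change 0.72, SE 0.19, edgeR adjusted p = 0.0197). SNORA5C in TBRG4 had 0.889 and 0.958 CPM under high flow, against 0.386 and 0.304 CPM in static cells (1.43, adjusted p = 0.0326), where the static values are 7 counts in each library. SNORA80B in ODC1 had 0.655 and 1.31 CPM under high flow, against 0.221 and 0.435 CPM in static cells (1.55, adjusted p = 0.0492), from 4 and 10 static counts, and SNORA80A is 91.9% identical to it. SNORA53 in SLC25A3, chosen after its values were seen, was called lower under high flow at -1.45 (adjusted p = 0.0410).

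TAF1D, which encodes a subunit of a transcription factor for RNA polymerase I, holds 8 members, more than any other gene, and 5 of them were called lower under high flow against static (62.5%, against 6.43% of all genes tested). All 5 calls were lost without static replicate 2 and again without high flow replicate 1. All 8 had negative log2 fold changes against static, with a median of -0.71, and all 8 against low flow, with a median of -0.60, where none passed and 4 had an unadjusted p under 0.05. SNORA8 (chr11:93732361-93732499, minus strand) had 5.90 and 6.35 CPM in static cells, 4.0 and 4.59 CPM under low flow and 2.90 and 3.66 CPM under high flow. SNORA18 had 5.24 and 4.78 CPM in static cells, 4.35 and 4.18 CPM under low flow and 2.22 and 3.17 CPM under high flow. In both genes the high flow libraries were the lowest and the static ones the highest, without overlap. SNORD5 had 1.47 and 2.46 CPM under high flow, against 3.91 and 4.09 CPM in static cells. The log2 fold changes under high flow were -0.90 for SNORA8 (SE 0.19, edgeR adjusted p = 0.00624), -0.88 for SNORA18 (SE 0.21, adjusted p = 0.0107) and -1.01 for SNORD5 (SE 0.24, adjusted p = 0.0112).

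SNORA32, chosen after its values were seen, and SNORA40 were the other called members of TAF1D, at -0.83 and -0.58. SNORA1, SNORA25 and SNORD6 did not pass. TAF1D itself fell to 143 and 165 CPM under high flow, against 230 and 254 CPM in static cells (log2 fold change -0.65, SE 0.11, adjusted p = 0.00169), and had 203 and 166 CPM under low flow (-0.39, adjusted p = 0.0437). Of its 8 members, 7 overlap its exons and can share its reads. Other annotated sequences are 93.5%, 92.4% and 96.9% identical to SNORA8, SNORA18 and SNORA40, so their counts are uncertain. Under low flow against static none of the 8 passed, with a median of -0.13 and 2 at an unadjusted p under 0.05, and DESeq2 called 0 of them. DESeq2 called 3 of the 8 lower under high flow against static.

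**Figure D5:**
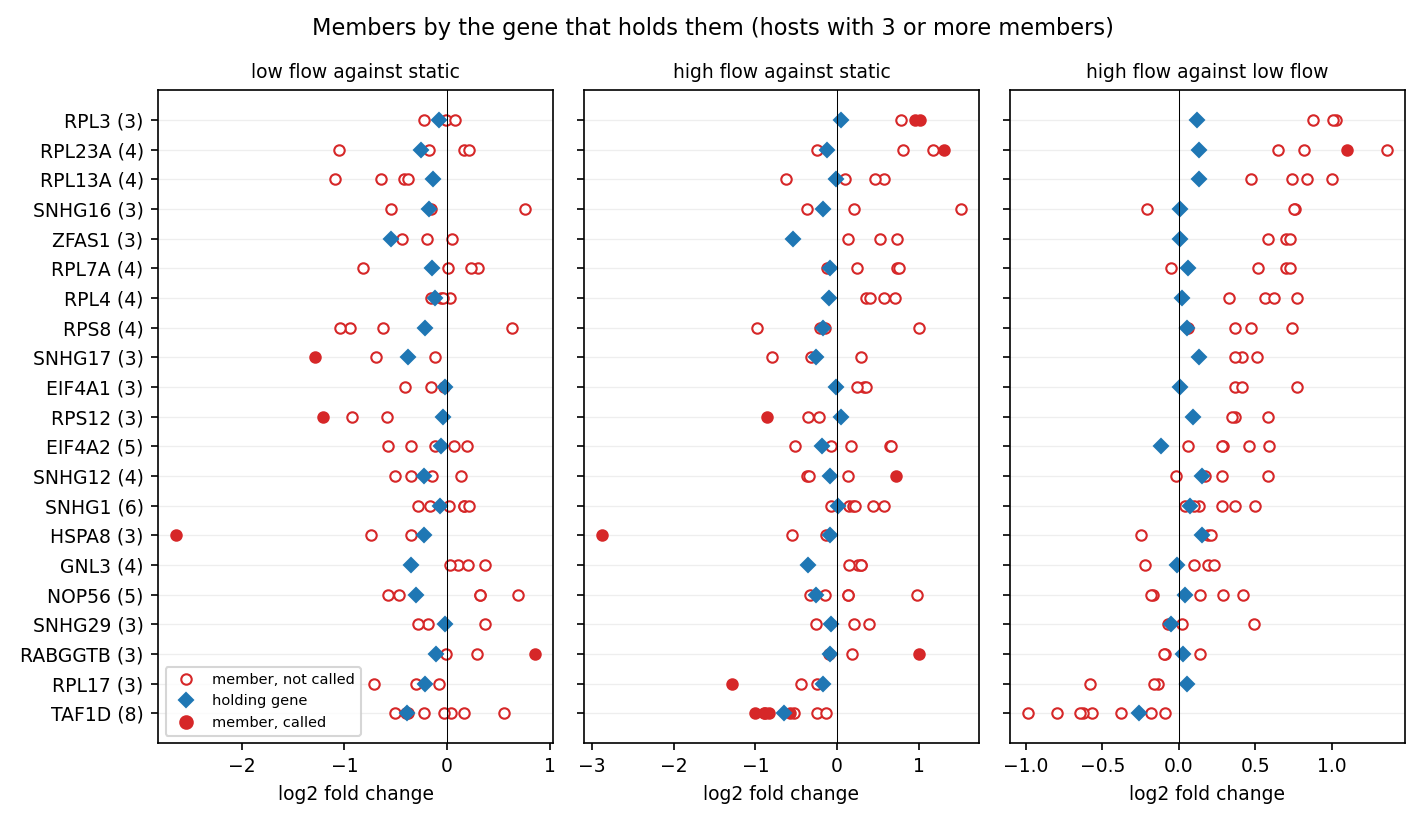
Log2 fold changes of members (circles, filled where called) and of the gene that holds them (diamonds) for the 21 genes with 3 or more members, in each comparison. The 8 TAF1D members lie left of 0 in both panels with high flow, and 1 HSPA8 member, SNORD14E, is called in both panels against static while the other 2 are not.

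Among the genes with 3 or more members, those of RPL3, RPL23A and RPL13A had the highest medians under high flow against low flow, of 1.01, 0.96 and 0.79. The 3 members of RPL3 lay between 0.88 and 1.03 on the log2 scale, the 4 of RPL23A between 0.65 and 1.36 and the 4 of RPL13A between 0.47 and 1.00. RPL3, RPL23A and RPL13A themselves had 0.12, 0.13 and 0.13. Of these 11 members only SNORD4A passed, and the library difference within high flow given above touches them all.

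Across members, the change of a member followed that of its holding gene weakly. Over 167 pairs in 88 genes, Pearson's r between the 2 log2 fold changes was 0.17 for low flow against static, 0.24 for high flow against static and 0.38 for high flow against low flow. Pairs in 1 gene share its value and all share the libraries, so these are descriptions. By position, r was 0.19, 0.30 and 0.44 for the 114 exon-overlapping pairs and 0.16, 0.15 and 0.30 for the 53 intronic ones. The member's change was the larger in 124, 132 and 141 of all the pairs. Members had fewer counts than most holding genes and so wider errors, whose part in this was not tested. Of the 88 holding genes, 0 were called higher and 13 lower (14.8%) under low flow, against 3.25% and 3.49% of all genes tested. Under high flow 0 were called higher and 16 lower (18.2%), against 7.49% and 6.43%. Most holding genes had far higher counts than the members, and these shares of all genes were not matched for count. At an unadjusted p under 0.05, 30 of the 88 passed in each comparison with static, against 4853 of all 20676 genes under low flow and 6074 under high flow. DESeq2 called 0 higher and 17 lower under low flow, and 1 higher and 16 lower under high flow.

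Of the 10 Cajal body RNAs, SCARNA10 was called, under high flow against static. SCARNA10, which guides modification of the U5 small nuclear RNA, lies in NCAPD2. It had 0.551 and 1.00 CPM in static cells, 0.220 and 0.291 CPM under low flow and 0.117 and 0.169 CPM under high flow, from 10, 23, 10, 14, 5 and 9 counts. The 3 conditions did not overlap, and the log2 fold changes against static were -1.61 under low flow (SE 0.51, edgeR adjusted p = 0.0619) and -2.42 under high flow (SE 0.55, adjusted p = 0.00801). DESeq2 gave SCARNA10 no adjusted p under high flow against static, at a log2 fold change of -2.44. The edgeR call under high flow was lost when static replicate 2 or high flow replicate 1 was left out. SCARNA12 in PHB2, the highest of the class, had 5.40 and 4.65 CPM in static cells, 3.67 and 3.95 CPM under low flow and 4.28 and 4.36 CPM under high flow, and did not pass. SCARNA2, SCARNA7, SCARNA13 and SCARNA17 had log2 fold changes against static between -0.28 and 0.67, and none passed. Summed over the class, static libraries had 13.8 and 14.6 CPM, low flow 13.1 and 14.3 CPM, and high flow 15.7 and 14.3 CPM.

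SNORD3A, SNORD118, SNORA73A and SNORA73B, which act in the cleavage of ribosomal RNA precursors, did not pass in any comparison. SNORD3A (U3), needed for the small subunit RNA, had 2.21 and 1.83 CPM in static cells, 1.80 and 3.53 CPM under low flow and 1.85 and 3.70 CPM under high flow. SNORD118 (U8), needed for the large subunit RNAs, had 0.937 and 0.826 CPM in static cells, 0.834 and 0.810 CPM under low flow and 0.445 and 0.864 CPM under high flow. In both, the low and high flow libraries overlapped the static ones. SNORA73A and SNORA73B (U17) are 93.2% identical to each other and had log2 fold changes of -0.18 and -0.38 under low flow and 0.48 and 0.13 under high flow.

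Genes for the proteins of these particles were called lower or did not pass, and none was called higher. Among all genes tested, 3.49% were called lower under low flow and 6.43% under high flow. The genes of these lists had higher counts than most members, and those shares of all genes were not matched for count. NOP58, a core box C/D protein, had 153 and 159 CPM under high flow, against 218 and 243 CPM in static cells, with log2 fold changes of -0.47 under low flow and -0.56 under high flow (edgeR adjusted p = 0.0167 and 0.00365). It was the 1 of 4 box C/D protein genes called in either comparison, beside FBL, NOP56 and SNU13. Of 4 box H/ACA protein genes, DKC1, which encodes the pseudouridine synthase, and NOP10 were called lower under low flow (-0.50 and -0.40), and DKC1, NOP10 and GAR1 under high flow (-0.51, -0.37 and -0.34). DKC1 had 85.9 and 86.1 CPM under high flow, against 117 and 128 CPM in static cells. RUVBL1 was the 1 of 10 measured assembly factors called lower under low flow (-0.51), and RUVBL1, RPAP3, TAF9 and NUFIP1 were lower under high flow (-0.44, -0.57, -0.37 and -0.45).

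Of 11 Cajal body protein genes, NOLC1 (-0.51) and TCOF1 (-0.39) were called lower under low flow, and NOLC1, SMN1, SMN2 and GEMIN5 under high flow (-0.45, -0.51, -0.49 and -0.35), where SMN1 and SMN2 are near-identical copies. COIL, the defining protein of the Cajal body, had -0.03 and -0.12 and did not pass. Of 14 genes of end trimming and decay, 1 was called lower at each flow rate (-0.40 and -0.38). It was TENT4B, a poly(A) polymerase that tags small nucleolar RNA precursors for trimming. Beside the 3.49% and 6.43% called lower among all genes tested, 1 call in 14 is not read as a result about that list. No gene of these lists was called in high against low flow, where the smallest list median was -0.08 and the largest 0.07.

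Other short RNAs without tails were measured beside the members. RN7SK, which holds the elongation factor P-TEFb inactive, had 29.5 and 36.5 CPM in static cells, 6.21 and 3.24 CPM under low flow and 3.07 and 3.45 CPM under high flow, a log2 fold change of -2.81 under low flow and -3.34 under high flow (edgeR adjusted p = 0.00469 and 0.00102). VTRNA1-3, a vault RNA, had 1.71 and 1.96 CPM in static cells, 0.681 and 0.374 CPM under low flow and 0.211 and 0.207 CPM under high flow (-1.80 and -3.12). Like SNORD14E and SNORD50B, both were lower in every flow library than in either static one. Of 21 such RNAs, 10 were tested: 2 were called lower under low flow and 3 under high flow with RNU6ATAC as the third, and 0 were called higher. Among all genes tested, 3.49% were called lower under low flow and 6.43% under high flow. RNU6ATAC lay near the floor, with 6 and 16 counts in static cells, 8 and 7 under low flow and 6 and 4 under high flow.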

How the data were processed

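The authors deposited raw counts per gene, 60591 rows by gene symbol with 1 column per library. Per the labels' protocols, RNA was extracted with TRIzol and libraries were made with a KAPA stranded mRNA kit. Per the submitters' processing notes, STAR, featureCounts and hg38 were used; settings and gene annotation are not given in the sources used here. Columns were matched to samples by the column name in each label.

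All genes were tested on the deposited counts by edgeR 4.0.16 (R 4.3.3), using its two-sided quasi-likelihood test with TMM normalization and robust estimates. A single fit took all 6 libraries, leaving 3 residual degrees of freedom. Genes under edgeR's default filter (minimum count 10) were dropped, and Benjamini-Hochberg adjustment ran over the 20676 genes kept, at a threshold of 0.05. "Called" means an adjusted p under that threshold. CPM were computed here with the TMM factors. Standard errors (SE) come from the test statistic. Positions and sequences come from GENCODE 29 on GRCh38, in which 164 members matched by symbol and 5 by gene ID. The fit was also run on simulated counts with the same fixed spread for every gene. That run checked the code alone and does not bear on the calls given here.

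The named members are up to 10 called per comparison and direction by p, the 10 highest by CPM, the 5 highest of each class per length and a panel of known members, with their holding genes; other names are marked. The members and lists were chosen with earlier results of these data known. Alternatives were RLE normalization, no expression filter, DESeq2 1.42.0, the 4 compared libraries alone, a replicate block, counts thinned to the smallest total, members outside other genes' exons, and each library left out. The sequence of 1 member is not reported here.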

Additional observations from a re-analysis of the deposited data

How the results depend on the processing

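With 2 libraries a condition, counts of called members moved with many settings. Members called lower under low flow numbered 9, and 4 with DESeq2, which gave the rest of the 9 no adjusted p. They numbered 14 with a crossed replicate block and 5 when members that overlap other genes' exons were left out, which removes members by construction. Members called higher under low flow numbered 1, and 3 with no expression filter, 0 with the 4 libraries alone, 3 with the crossed block and 0 outside exons. Members called higher under high flow against static numbered 8, and 13 with the 4 libraries alone, 4 with the replicate block and 4 outside exons; those called lower numbered 15, and 3 outside exons. In high against low flow, 1 was called higher, and 7 with no expression filter, 0 with the 4 libraries alone, 0 with the replicate block and 4 with the crossed block; 0 were called lower, and 1 with no expression filter and 1 with the crossed block. The cause of these changes was not tested unless given.

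Leaving out 1 library at a time gave 2 to 24 lower and 0 to 2 higher calls under low flow, 4 to 19 lower and 1 to 14 higher under high flow, and 0 to 1 lower and 0 to 5 higher in high against low flow; a lone library was assumed to vary like the others. No called member changed direction in any alternative. RLE normalization moved no count. Same-numbered libraries deviated little together, with correlations of -0.144, -0.0514 and 0.138. These values cannot tell whether libraries shared a culture or day, since such sharing need not follow the numbers. The replicate block is therefore given for its count of calls, and it kept 8 of 9 lower calls under low flow and 11 of 15 under high flow. The crossed pairing of static numbers was added after the data were seen. Depth limits members of few counts: those with under 10 counts in a library, such as SNORA5C and SNORA80B, carry wide errors.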

Other observations

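Of the 39 members held by non-coding host genes, 0 were called higher and 2 lower (5.13%) under low flow against static, beside 3.25% and 3.49% of all genes tested (median log2 fold change -0.18, with 4 at an unadjusted p under 0.05). Under high flow 1 was called higher and 1 lower (2.56% each), beside 7.49% and 6.43% of all genes tested (median 0.15). SNHG1 holds 6 box C/D members, SNORD22, SNORD25, SNORD26, SNORD27, SNORD28 and SNORD30. Their log2 fold changes lay between -0.28 and 0.21 under low flow and between -0.07 and 0.58 under high flow, and none passed by edgeR, with 0 and 1 at an unadjusted p under 0.05, or by DESeq2. GNL3, which encodes a nucleolar GTPase, holds 4 members that were all on the positive side in both comparisons with static, between 0.03 and 0.37 under low flow and between 0.15 and 0.30 under high flow, and none of them passed by either tool. GNL3 itself went the other way, at -0.35 under low flow (edgeR adjusted p = 0.0551) and -0.36 under high flow, where it was called lower (edgeR adjusted p = 0.0307).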
